A study of Mus musculus with 12 samples.

Results

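Clu, the mouse gene for clusterin, was followed across the 12 epididymis libraries of the series. It is 1 of 55536 gene identifiers counted (ENSMUSG00000022037) and lies on the plus strand of chromosome 14 at 65968483 to 65981547 in GRCm38. GENCODE release M21 gives it 9 transcripts, of which Clu-201 has 9 exons and 1810 bp, and no other annotated gene overlaps it. The gene was chosen from its levels in these same libraries, with its difference after ligation known, so its own values are described without a test.

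Tissue came from wild-type mice. The efferent ducts, which bring sperm and testicular fluid into the head of the epididymis, were tied off with suture for the ligated groups and left untied for the controls. There were 6 groups: ligated segments 1, 2 and 3 and control segments 1, 2 and 3, counted from the end nearest the efferent ducts. Each group had 1 library in sequencing batch 3017 and 1 in batch 3097, and each library pooled 2 mice, so errors and p-values measure the spread between pools. The sources used here do not give strain, age, the time after ligation, or whether ligated and control tissue came from the same animals.

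Clusterin is a secreted glycoprotein that binds unfolded proteins outside cells, and it is also known as apolipoprotein J. It is made as a single chain, cut by a proprotein convertase into alpha and beta chains and secreted as a disulfide-linked heterodimer. It is a major secreted protein of Sertoli cells and of the epididymal epithelium, coats sperm, and is taken up from the lumen by the endocytic receptor megalin.

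Libraries held 30.5 to 42.3 M counts. Levels are given as CPM, the counts of a gene scaled to the TMM-adjusted size of its library, and shares as percent of all gene counts in a library. Markers of principal cells, the main epithelial cell of the epididymis (8 genes), summed to between 10000.3 and 27775 CPM in every library. In control segment 3 the sums were 19191 and 20586 CPM, of which Adam7 alone had a mean of 16646 CPM. There the sum mostly reflects that gene. The 2 libraries of control segment 2 stood farthest apart, their counts giving 115.5 for chi-square over its degrees of freedom, against 22.6 to 80.1 in the other groups. Because the RNA came from whole tissue, fewer cells of a type and less RNA per cell cannot be told apart.

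In segment 1, Clu had 18692 and 16254 CPM in the ligated libraries of batches 3017 and 3097, against 453 and 564 CPM in the control libraries. Ligated segment 2 had 23010 and 22322 CPM, against 2252 and 10051 CPM in control segment 2. In segment 3 the ligated libraries had 28307 and 24015 CPM, against 16847 and 22583 CPM in the controls. Every ligated library was therefore above every control library of its own segment, but in segment 3 the gap between the nearest libraries was small beside the spread within either group.

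As raw counts, ligated segment 1 held 801291 and 580702 reads of Clu, against 18079 and 18924 in control segment 1. These are shares of 1.99% and 1.76% in the ligated libraries (exact Clopper-Pearson 95% intervals 1.986% to 1.995% and 1.758% to 1.767%), against 0.0427% and 0.0521% in the controls (0.0421% to 0.0434% and 0.0513% to 0.0528%). In plainer terms, 1 in 50.2 and 1 in 56.8 counted reads came from Clu in ligated segment 1, against 1 in 2340 and 1 in 1921 in control segment 1. Reads carry no molecular identifiers, so the intervals cover counting error only, and the spread between pools is far wider than they are.

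**Figure D1:**
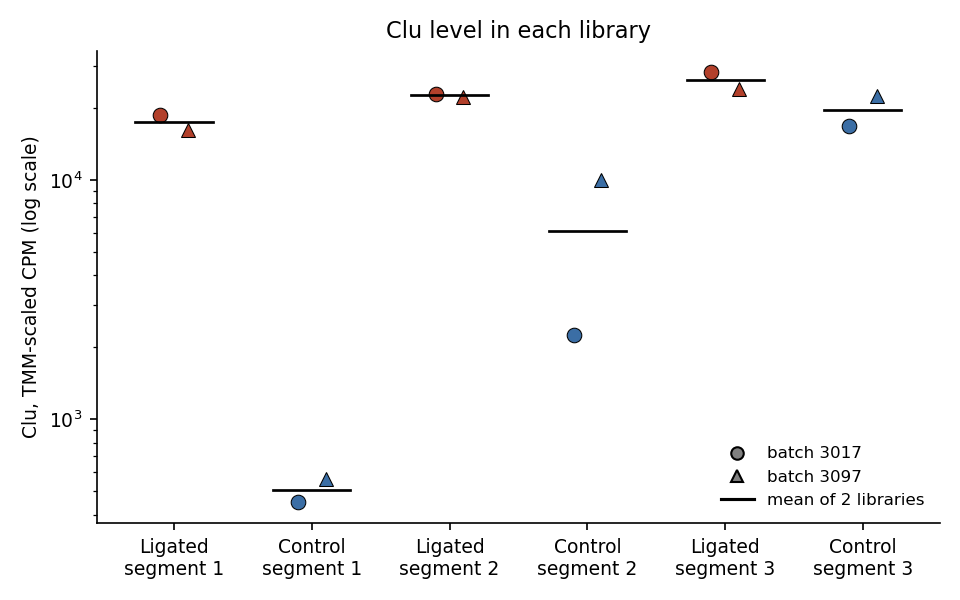
Clu level in TMM-scaled CPM (log axis) in each of the 12 libraries, ligated groups left of their controls, with point shape giving the batch and bars the group mean. Control segment 1 sits near 508 CPM, the libraries of control segment 2 lie 4.46-fold apart, and every library of the other groups lies at or above 16254 CPM.

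From high to low, the group means were 26161 ± 3035 CPM in ligated segment 3, 22666 ± 486 CPM in ligated segment 2, 19715 ± 4056 CPM in control segment 3, 17473 ± 1725 CPM in ligated segment 1, 6151 ± 5515 CPM in control segment 2 and 508 ± 78.6 CPM in control segment 1 (SD, n = 2 libraries each). The groups from ligated segment 3 down to ligated segment 1 follow each other in steps of 1.13-fold to 1.15-fold. Within them the libraries of control segment 3 overlapped both their neighbours in this order, ligated segment 2 above and ligated segment 1 below. Control segment 2 was 2.84-fold below ligated segment 1 and 12.1-fold above control segment 1, with no overlap on either side. The higher library of control segment 2 had 4.46 times the level of the lower, while in the other 5 groups this ratio was 1.03 to 1.34.

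Ranked by counts among all genes, Clu was second in both libraries of ligated segments 1, 2 and 3. It ranked 288 and 203 in control segment 1, 37 and 5 in control segment 2, and 4 and 2 in control segment 3 (batches 3017 and 3097). Libraries detected 23455 to 25417 genes, so even the control segment 1 ranks lie within the top 1.18% of them. Clu was thus well expressed in control segment 1 and near the top of the list everywhere else outside control segment 2 of batch 3017.

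Counts grow with transcript length, so the rank was also taken per kilobase of exon model (3437 bp for Clu, all annotated exons joined, which is longer than Clu-201 and so lowers its value). On that scale the group mean of Clu ranked 5, 4 and 3 in ligated segments 1, 2 and 3, against 270, 25 and 6 in control segments 1, 2 and 3. Only Gpx5, Lypd8, Gm23935 and mt-Co1 were above it in ligated segment 1. Gpx5, whose product is a glutathione peroxidase secreted into the caput lumen, had 21946 ± 2206 CPM per kb there, against 5082 ± 502 CPM per kb for Clu (SD, n = 2). In ligated segment 3, Gpx5 and Lcn5, a retinoid-binding lipocalin of the epididymis, were the only genes above Clu in the group means. In control segment 3 these were Gpx5, Lypd8, Gm23935, Gm24270 and Gm42418. The Gm entries, in that order, had 83932 ± 79667, 12805 ± 9419 and 8794 ± 6621 CPM per kb there (SD, n = 2). The rank of 6 thus depends on entries that varied widely between the libraries.

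**Figure D2:**
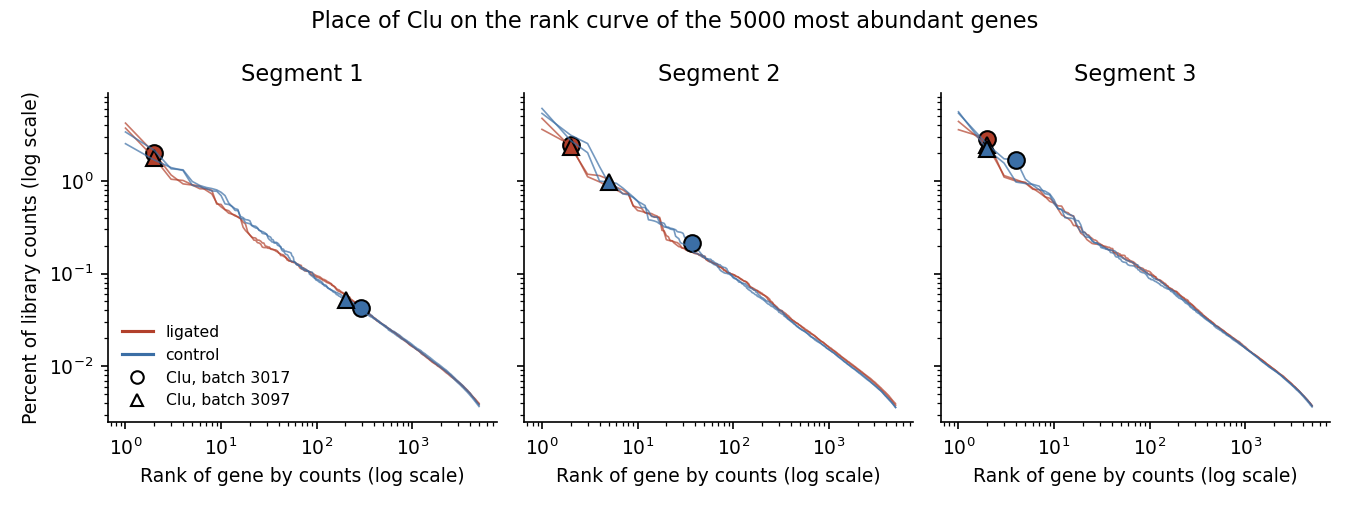
Percent of library counts taken by each of the 5000 most abundant genes against their rank (both axes log), a panel per segment, ligated libraries in red and controls in blue, with the place of Clu marked by batch. Clu is second by counts in all 6 ligated libraries and ranks between 203 and 288 in control segment 1.

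The difference between ligated and control tissue was greatest next to the ligature. In segment 1 it was 5.14 ± 0.65 on the log2 scale (SE from the edgeR fit), 35.2-fold, with 41.3-fold in batch 3017 and 28.8-fold in batch 3097. Of the 19213 genes fitted, 146 (0.76%) had a higher log2 difference there. In segment 2 it was 2.01 ± 0.58, 4.02-fold, and the batches gave 10.2-fold and 2.22-fold. Segment 3 had 0.45 ± 0.55, 1.37-fold, with 1.68-fold and 1.06-fold in the batches, a value smaller than its own standard error.

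As a gain in share of counts, the difference was 1.83 percentage points in segment 1, 1.79 in segment 2 and 0.698 in segment 3. The fold was thus much larger in segment 1 than in segment 2, while the mean gain in share was about the same. In segment 2 the shares were 2.44% and 2.31% after ligation, against 0.215% and 0.968% in the control (batches 3017 and 3097). The gain there was therefore larger in batch 3017 than in batch 3097. The segment 2 value turned on which control library was used: it was 1.21 on the log2 scale without the control library of batch 3017 and 3.32 without that of batch 3097. Described as a difference of log2 differences, segment 1 exceeded segment 2 by 3.13 ± 0.80 and segment 3 by 4.69 ± 0.81.

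Without ligation, Clu was higher farther along the duct. It was 11.3-fold lower in control segment 1 than in control segment 2 (4.97-fold and 17.8-fold in batches 3017 and 3097) and 38.6-fold lower than in control segment 3 (37.2-fold and 40.0-fold). Control segment 2 was 3.42-fold below control segment 3, by 7.48-fold in batch 3017 and 2.25-fold in batch 3097. Along the ligated duct the steps were small: ligated segment 1 lay 1.29-fold below ligated segment 2 and 1.50-fold below ligated segment 3. Ligated segment 1 and control segment 3 differed by -0.13 ± 0.55 on the log2 scale, 0.15 in batch 3017 and -0.47 in batch 3097, so the batches did not share a direction.

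Genes with a profile like that of Clu were sought by the root-mean-square difference between log2 CPM centred over the 12 libraries (prior count 2), among 11210 genes with at least 5 CPM in their highest group. Clu itself had an SD of 2.07 log2 units over the libraries. The median gene lay 2.09 log2 units from it, and 174 genes lay within 1. The 8 nearest were Galnt9 (0.256), Acat3 (0.292), Chrdl2 (0.309), Gchfr (0.337), Dok5 (0.341), Fam196b (0.351), Spink12 (0.383) and Nipal1 (0.407). Some were near the floor in control segment 1, where 3 counts are worth 0.0709 and 0.0825 CPM. Galnt9 had 0.0751 and 0.179 CPM there and Dok5 0.0751 and 0.119 CPM, so their likeness in that group rests on few reads. The likeness is over all 12 libraries of the same pools, so it includes shared batch and tissue composition.

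Acat3, an acetyl-CoA acetyltransferase gene, had 34.2 and 32.9 CPM in ligated segment 1, against 0.901 and 2.15 CPM in control segment 1. In control segment 2 its libraries had 5.06 and 25.3 CPM, apart in the same way as those of Clu. Spink12, a member of the Kazal-type serine protease inhibitor family, had 871 and 926 CPM in ligated segment 1, against 13.9 and 24.0 CPM in control segment 1, and 98.0 and 519 CPM in control segment 2. For both genes the higher library of control segment 2 was the one of batch 3097, in which Clu was also higher. Since the genes were chosen for likeness over all 12 libraries, these included, this order follows in part from the choice.

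The 4 nearest mirror images were Ggt7 (0.203), Ascl4 (0.325), Rem1 (0.348) and Sh2d5 (0.358). Ggt7, of the gamma-glutamyltransferase family, had 4.55 ± 0.93 CPM in ligated segment 1 and 160 ± 37.5 CPM in control segment 1 (SD, n = 2 each). In control segment 2 it had 37.8 and 9.30 CPM, the reverse of the order seen for Clu, which follows in part from its choice as a mirror image. Rem1, a Ras-like GTPase gene, had 8.65 ± 1.98 CPM in ligated segment 1 and 168 ± 18.7 CPM in control segment 1.

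**Figure D3:**
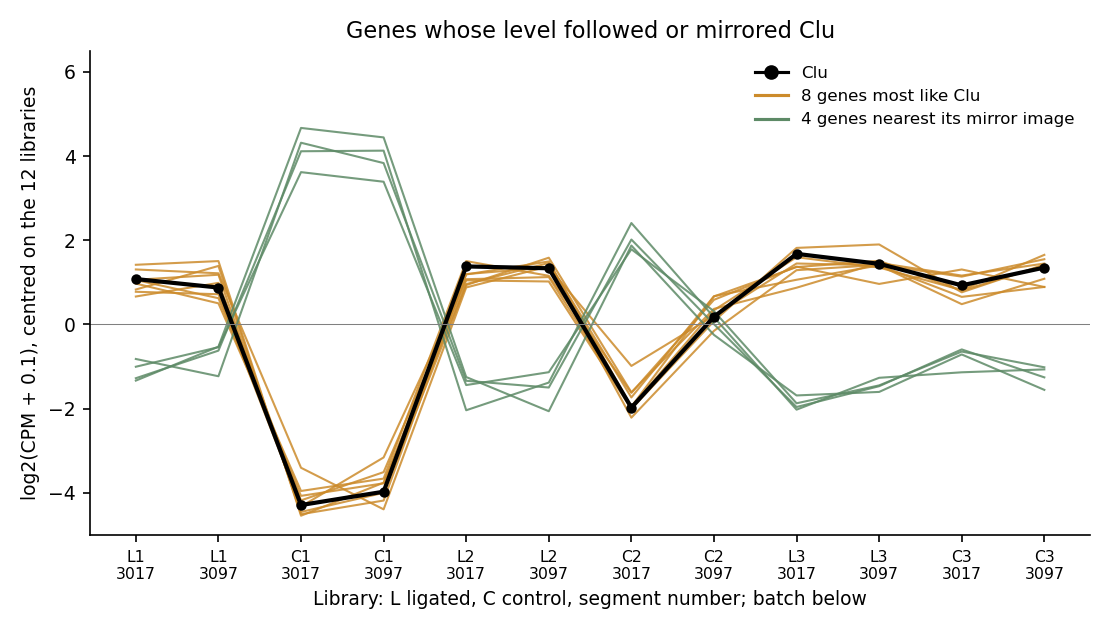
Level by library as log2 of CPM plus 0.1, centred on each gene's mean over the 12 libraries, of Clu, the 8 genes nearest to it and the 4 nearest mirror images. The libraries of control segment 2 lie apart in the direction that separates segments 1 and 3 of the control tissue. The genes were chosen on all 12 libraries, these included.

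To set Clu beside the system it works in, 60 genes linked to clusterin were listed by role, and 52 passed the filter on low counts. Pon1, A2m, Apcs, Ttr, Hc, C6, C8b and C9 were too low to test. In segment 1, 28 of the 52 passed the edgeR quasi-likelihood test at a Benjamini-Hochberg adjusted p under 0.05, 15 higher and 13 lower in ligated tissue. This is 53.8%, against 48.7% of all genes tested (24.4% higher and 24.4% lower), so the share is near the background. The median log2 difference of the 52 was 0.11, against 0.03 over all genes. With library totals in place of TMM the split was 25 higher and 10 lower, since that scaling moves the median of all genes by 0.20.

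Among receptors and uptake proteins, 3 of 7 rose and 2 fell (24.4% of all genes tested rose and 24.4% fell). Lrp2 encodes megalin, the receptor through which epithelial cells take up clusterin. It had 31.7 and 33.8 CPM in ligated segment 1, against 6.31 and 8.34 CPM in control segment 1, and rose by 2.16 ± 0.19 (edgeR adjusted p = 4.54e-05). In the other 4 groups its libraries lay between 26.7 and 39.0 CPM, so ligated segment 1 was at their level and control segment 1 stood alone below.

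Dab2 encodes an adaptor that links receptors of this family to clathrin. It had 794 and 596 CPM in ligated segment 1, against 53.2 and 83.0 CPM in control segment 1, a rise of 3.39 ± 0.33 (edgeR adjusted p = 1.59e-04). In segment 2 it had 926 and 1026 CPM after ligation, against 353 and 693 CPM in the control, and this difference of 0.93 ± 0.30 did not pass the test (edgeR adjusted p = 0.094). As with Clu, the control segment 2 library of batch 3097 was the higher.

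Vldlr, the very low density lipoprotein receptor, went the other way. It had 4.95 and 5.96 CPM in ligated segment 1, against 178 and 139 CPM in control segment 1, and fell by 4.84 ± 0.27 on the log2 scale (edgeR adjusted p = 1.58e-05). All libraries outside control segment 1 had 3.03 to 6.17 CPM. Lrpap1, a chaperone for receptors of this family, fell by 0.48 ± 0.10, and Trem2, a macrophage receptor that binds clusterin, rose by 0.67 ± 0.22. The call of Trem2 was lost when any of the 4 libraries of segment 1 was left out (edgeR adjusted p up to 0.144). Lrp8 (-0.85 ± 0.49) and Lrp1 (0.06 ± 0.20) did not pass the test.

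**Figure D4:**
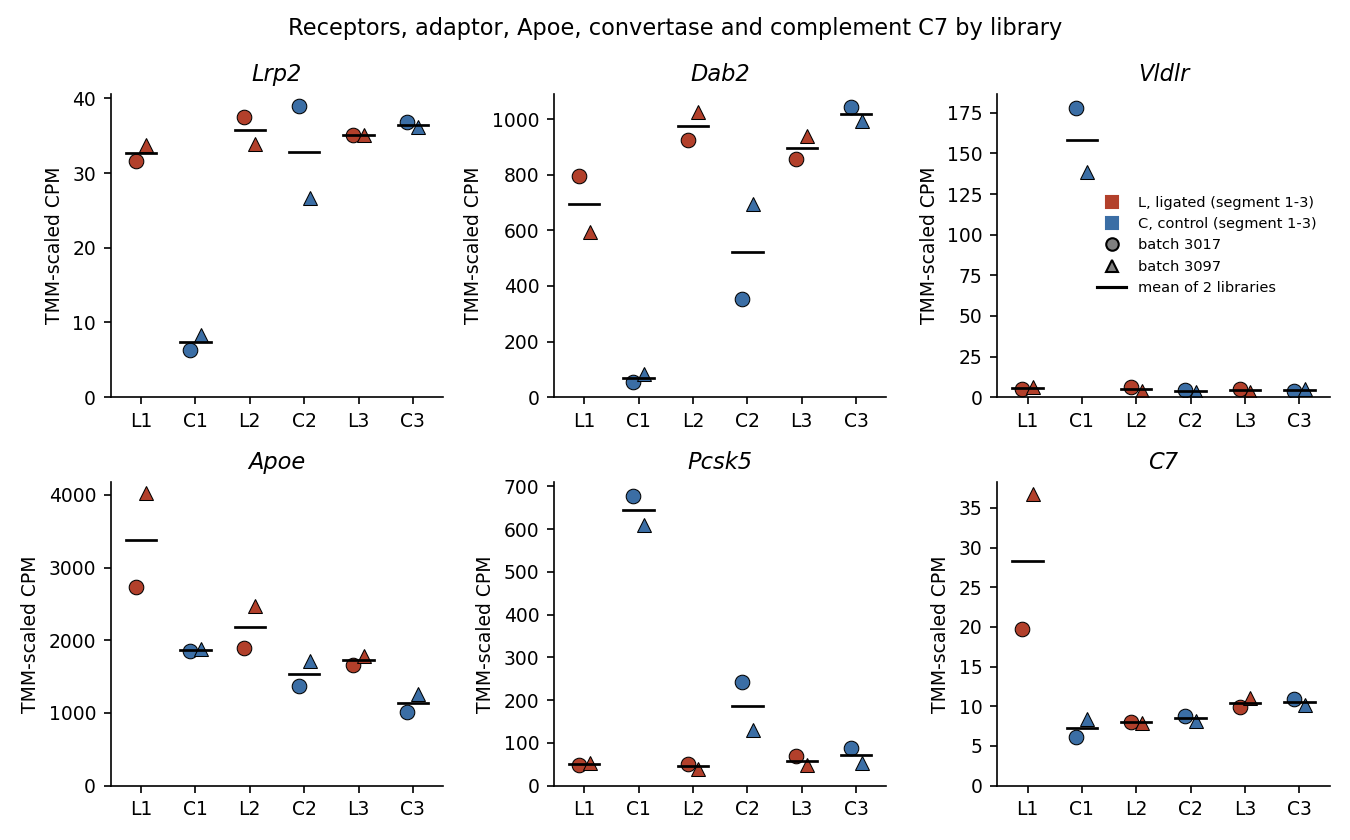
Level by library in TMM-scaled CPM (linear axes from 0, black bars the mean of 2 libraries) of Lrp2, Dab2, Vldlr, Apoe, Pcsk5 and C7, ligated groups left of their controls. Control segment 1 is the group that stands apart for Lrp2, Dab2 and Vldlr, while for C7 it is ligated segment 1 (19.8 and 36.7 CPM).

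Among the other apolipoproteins and lipid transfer genes, 4 of 9 tested rose and 2 fell (24.4% of all genes rose and 24.4% fell). Apoe, the apolipoprotein that shares receptors with clusterin, had 2731 and 4028 CPM in ligated segment 1, against 1853 and 1885 CPM in control segment 1 (0.83 ± 0.14, edgeR adjusted p = 0.00104). Lpl, lipoprotein lipase, rose by 1.77 ± 0.29 to 7.32 and 9.40 CPM, against 2.33 and 2.53 CPM. Pltp, the phospholipid transfer protein, rose by 0.74 ± 0.11. Abcg1, a cholesterol exporter, fell by 1.25 ± 0.24, and Apod, a lipocalin, fell by 0.52 ± 0.17. Lcat rose by 2.17 ± 0.78 but reached only 0.327 and 0.196 CPM, against 0.025 and 0.0894 CPM in the controls. The call of Lcat was lost in 14 alternative settings and that of Apod in 8, most of them with a library left out (edgeR or DESeq2 adjusted p up to 0.349 and 0.238). Abca1, Apoa1 and Apoc1 did not pass.

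Only 3 of the 6 other extracellular chaperones could be tested. Hp (haptoglobin) and Nucb1 rose by 1.33 ± 0.28 and 0.46 ± 0.12. Pzp, an alpha-2-macroglobulin family protease inhibitor, fell by 3.36 ± 0.83 (edgeR adjusted p = 0.0184), with 1.61 and 2.66 CPM in ligated segment 1, against 12.9 and 29.6 CPM in control segment 1. Pzp was also lower in segment 2, where the ligated libraries had 1.50 and 1.05 CPM, against 69.6 and 19.3 CPM (-5.05 ± 0.90, edgeR adjusted p = 0.0259). The groups overlapped in neither segment, although the control libraries differed widely between batches. In segment 1 the call of Nucb1 was lost when the ligated library of batch 3017 or either control library was left out (edgeR adjusted p up to 0.107). That of Pzp was lost when either ligated library or the control library of batch 3097 was left out (edgeR adjusted p up to 0.121).

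Clusterin inhibits assembly of the membrane attack complex. Of 9 tested genes of the terminal complement list, 4 rose in segment 1 and 0 fell. Over all genes tested 24.4% rose and 24.4% fell, so the share called is near the background. C7, a component of the complex, had 19.8 and 36.7 CPM in ligated segment 1, against 6.08 and 8.43 CPM in control segment 1 (1.94 ± 0.24, edgeR adjusted p = 2.32e-04). No other group exceeded 11.1 CPM in either library, so ligated segment 1 stood above all of them. C8g rose by 0.99 ± 0.16, C8a by 1.87 ± 0.50 at under 1 CPM, and Cd55, an inhibitor of the complement convertases, by 1.37 ± 0.31. The call of C8a was lost without the ligated library of batch 3017 or the control library of batch 3097 (edgeR adjusted p up to 0.0889), and that of Cd55 without the control library of batch 3017 (edgeR adjusted p = 0.0621). Cd59a, the membrane inhibitor of the complex, did not pass in segment 1 (0.11 ± 0.08, edgeR adjusted p = 0.281) and fell by 0.41 ± 0.08 in segment 2.

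Of 13 reported transcriptional regulators of Clu, 1 rose and 5 fell in segment 1, a share called of 46.2%, against 48.7% of all genes tested. Egr1, an immediate early transcription factor, had 5.11 and 3.95 CPM in ligated segment 1, against 44.8 and 26.8 CPM in control segment 1 (-2.99 ± 0.41, edgeR adjusted p = 8.5e-04). Tgfb1, the transforming growth factor gene, had 37.0 and 32.0 CPM, against 163 and 95.1 CPM (-1.87 ± 0.20, edgeR adjusted p = 1.78e-04). The ligated and control libraries did not overlap for either gene.

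Fos fell by 1.34 ± 0.33, Stat3 by 0.66 ± 0.10 and Hsf1, the main heat shock factor, by 0.47 ± 0.08, while Hsf2 rose by 0.37 ± 0.10. Jun, Junb, Mybl2, Smad3, Nfkb1, Trp53 and Ybx1 did not pass. The call of Fos was lost without the ligated library of batch 3097 (edgeR adjusted p = 0.069), and that of Hsf2 when any of the 4 libraries of segment 1 was left out (edgeR adjusted p up to 0.0896).

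Among processing and intracellular partners, 1 of 11 rose and 3 fell (24.4% of all genes tested rose and 24.4% fell). Pcsk5 encodes a proprotein convertase of the furin family. It had 49.1 and 52.0 CPM in ligated segment 1, against 678 and 609 CPM in control segment 1, and fell by 3.66 ± 0.24 (edgeR adjusted p = 2.6e-05). In segment 2 it had 51.4 and 39.5 CPM after ligation, against 243 and 130 CPM in the control (-2.00 ± 0.22, edgeR adjusted p = 0.00321). Leaving out the ligated library of batch 3017 gave an edgeR adjusted p of 0.0525 there. The groups did not overlap in either segment. Furin itself had 92.2 and 72.4 CPM in ligated segment 1, against 89.9 and 62.4 CPM in control segment 1, and did not pass (0.12 ± 0.10, edgeR adjusted p = 0.318). Pcsk6 and Pcsk7 fell by 1.25 ± 0.40 and 0.35 ± 0.08; with library totals neither passed, and Pcsk6 was also lost without the ligated or the control library of batch 3017 (adjusted p up to 0.222 over all alternatives). Tgfbr1, whose protein binds clusterin, rose by 0.68 ± 0.12. Hspa5, the main chaperone of the endoplasmic reticulum, had 2578 and 2589 CPM after ligation, against 2816 and 3073 CPM, and did not pass (edgeR adjusted p = 0.243).

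**Figure D5:**
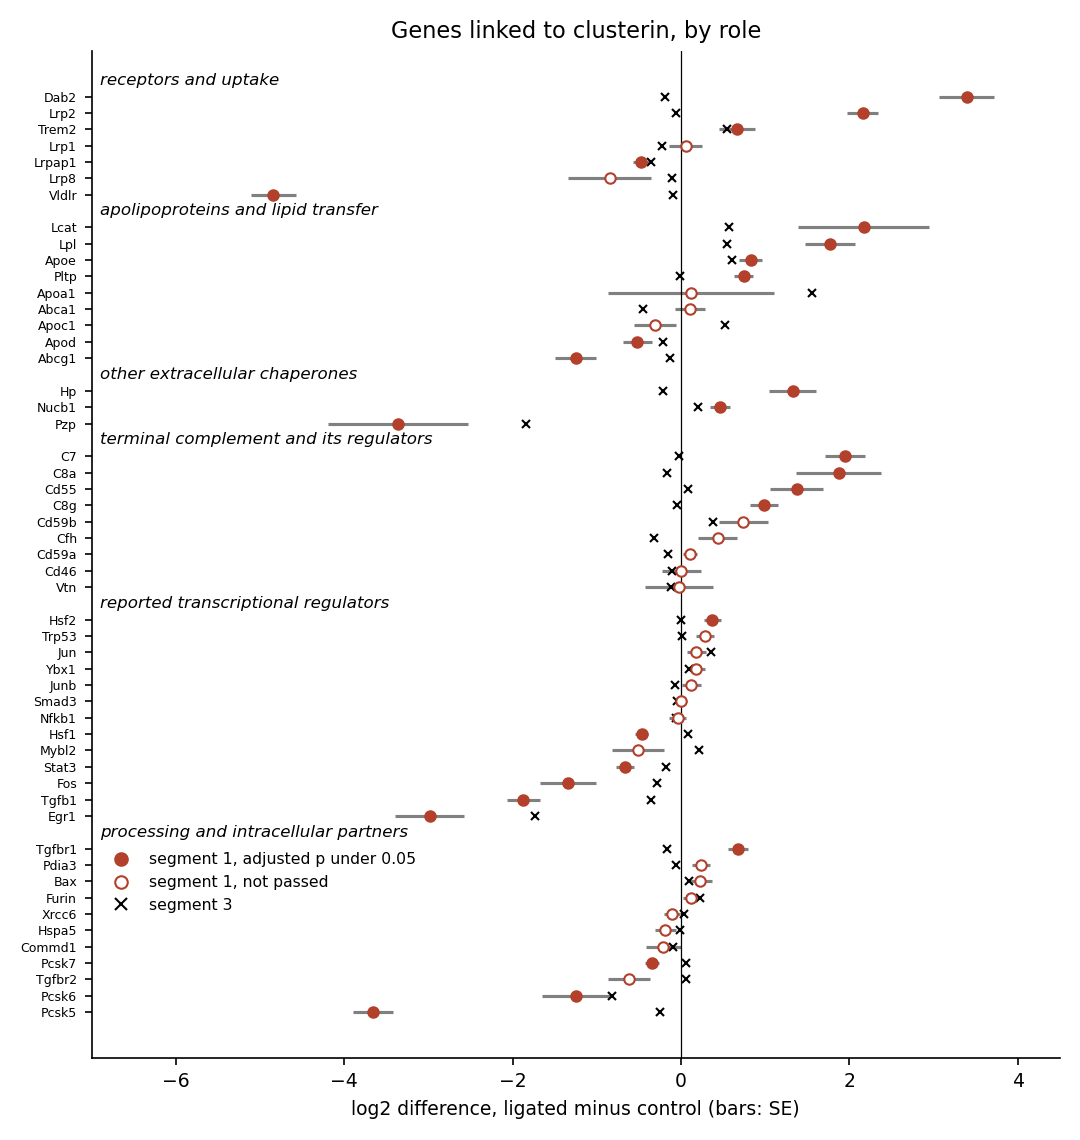
Log2 difference, ligated minus control, of the 52 tested genes linked to clusterin, grouped by role: circles for segment 1 with bars giving the SE, filled where the edgeR test was passed, and crosses for segment 3. Called genes lie on both sides of 0 in segment 1 (15 higher, 13 lower), and 0 are called in segment 3.

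In segment 2, 6 of 52 linked genes passed (11.5%, against 9.86% of all genes tested, 2.87% higher and 7% lower): Jun rose by 0.68 ± 0.11, and Lrpap1, Pzp, Cd59a, Stat3 and Pcsk5 fell. With library totals alone this split was 6 higher and 4 lower. None of the 6 kept its call in every alternative, and the count ranged from 0 without the ligated library of batch 3017 and 3 without that of batch 3097 to 16 without the control library of batch 3097, and was 3 without the control library of batch 3017. In segment 3, 0 of 52 passed in edgeR, against 1.72% of all genes tested. There, 7 had an unadjusted edgeR p under 0.05, a threshold for which no share of all genes is given. DESeq2 called 3 of the linked genes, and 649 over all genes.

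The same genes were tested for an unequal effect of ligation in different segments. Between segments 1 and 2 it passed for 15 of 52 (28.8%, against 18.5% of all genes tested), and between segments 1 and 3 also for 15 (28.8%, against 30.7%). Lrp2 differed by 2.04 and 2.22 on the log2 scale in these comparisons, Dab2 by 2.46 and 3.58, and Vldlr by -5.24 and -4.75. For Lrp2, Dab2 and Vldlr the ligation difference was therefore larger in size in segment 1 than farther along the duct. It was a rise for Lrp2 and Dab2 and a fall for Vldlr. Between segments 1 and 3, the share of linked genes with an unequal effect was near that of all genes.

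Between control segments, 22 of 52 linked genes differed from segment 1 to segment 2 (13 higher and 9 lower in segment 1; 43.2% of all genes tested were called, 21.1% higher and 22.1% lower) and 28 from segment 1 to segment 3 (17 higher and 11 lower; 51.2% were called, 25% higher and 26.2% lower). From segment 2 to segment 3 it was 3 (2 higher and 1 lower in segment 2; 1.79% were called, 0.911% higher and 0.874% lower). Against control segment 3, control segment 1 had lower Lrp2 (-2.32 ± 0.19, edgeR adjusted p = 2.9e-05) and Dab2 (-3.93 ± 0.33, edgeR adjusted p = 8.3e-05). It had higher Vldlr (5.13 ± 0.27, edgeR adjusted p = 1.2e-05) and Pcsk5 (3.23 ± 0.23, edgeR adjusted p = 3.3e-05). These comparisons and the ligation comparison of segment 1 share the control segment 1 libraries, so their values are given side by side only.

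The 4 protein-coding genes on each side of Clu on chromosome 14 did not move as a block. In segment 1, 3 of the 8 rose and 1 fell, against 24.4% of all genes tested higher and 24.4% lower. The share called is thus near the background. Gulo, the nearest at 5.24 kb, encodes the last enzyme of ascorbate synthesis; it had 0.583 and 0.644 CPM in ligated segment 1, against 4.01 and 4.14 CPM in control segment 1 (-2.73 ± 0.33, edgeR adjusted p = 1.62e-04). On the other side, Scara3 at 14.5 kb had 12.6 and 16.8 CPM, against 11.2 and 10.8 CPM (0.40 ± 0.15, edgeR adjusted p = 0.0467), a call lost in 14 alternative settings, among them DESeq2.

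Ephx2, the soluble epoxide hydrolase gene at 103 kb, had 25.7 and 20.2 CPM in ligated segment 1, against 4.93 and 7.33 CPM in control segment 1 (1.89 ± 0.23, edgeR adjusted p = 2.59e-04). Ccdc25 at 102 kb had 72.5 and 76.0 CPM, against 37.1 and 38.7 CPM (0.97 ± 0.14, edgeR adjusted p = 5.35e-04), and also rose in segment 2 by 0.57 ± 0.14. Pbk, Esco2, Adam2 and Chrna2 did not pass in segment 1. In segment 2, Pbk and Adam2, the gene of a sperm surface protein, fell by 3.37 ± 0.65 and 5.04 ± 0.99. Both were at low levels: with 0.5 CPM added, the within-batch log2 ratios were only -1.82 and -1.75 for Pbk and -1.74 and -1.18 for Adam2. Of all genes tested, 2.87% rose and 7% fell in that segment. In segment 3 Pbk fell by 3.19 ± 0.64 (1.41% of all genes tested fell there). These calls of Pbk and Adam2, and that of Ccdc25 in segment 2, were lost when either ligated library of their segment was left out. Over all alternatives the adjusted p reached 0.139 for Pbk, 0.18 for Adam2 and 0.241 for Ccdc25 in segment 2, and 0.42 for Pbk in segment 3.

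Cell type marker lists also differed between ligated and control segment 1, some of their sums higher and others lower. Of all genes tested there, 24.4% rose and 24.4% fell. Clear and narrow cell markers summed to 1080 and 975 CPM in ligated segment 1, against 214 and 298 CPM in control segment 1, and 4 of 5 rose. In control segment 2, where Clu lay 4.46-fold apart, the same sum was 655 CPM in batch 3017 and 970 CPM in batch 3097, higher in the library with more Clu. Other lists differed between these libraries too: in batch 3017 and batch 3097, fibroblast markers summed to 311 and 152 CPM, principal cell markers to 27775 and 22240 CPM, multiciliated cell markers to 118 and 152 CPM, and macrophage markers to 60.2 and 90.5 CPM. Multiciliated cell markers, which would mark efferent duct tissue, summed to 185 and 155 CPM in ligated segment 1, against 92.0 and 89.2 CPM in control segment 1, and 5 of 6 rose. Smooth muscle markers summed to 430 and 550 CPM, against 266 and 333 CPM, and 5 of 5 rose, while endothelial markers summed to 18.6 and 27.5 CPM, against 73.9 and 70.3 CPM, and 4 of 4 fell. Of the 8 principal cell markers 1 rose and 4 fell, with sums of 10000.3 and 10412 CPM, against 21849 and 27186 CPM. Adam7, with a mean of 16646 CPM in control segment 3, lay 0.89 ± 0.18 log2 units lower in ligated segment 1. The sum in ligated segment 1 thus also mostly reflects that gene, and it does not count principal cells. Fibroblast markers summed to 177 and 275 CPM in ligated segment 1, against 597 and 596 CPM in control segment 1. Of these, 4 of 5 rose, while Pdgfra, at 25.9 and 38.6 CPM against 527 and 511 CPM, fell. Macrophage markers summed to 121 and 126 CPM in ligated segment 1, against 73.7 and 82.3 CPM in control segment 1, and 1 of 5, Cd68, rose. The part of these markers in the values of Clu, C7 or Trem2 was not tested.

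Sperm and spermatid markers summed to 0.583 and 0.196 CPM in ligated segment 1, against 8.49 and 10.2 CPM in control segment 1. In each segment 6 of 6 fell, against 24.4%, 7% and 1.41% of all genes tested in segments 1, 2 and 3. The sums were 0.363 and 0.390 CPM in ligated segment 2, against 175 and 146 CPM, and 0.550 and 0.228 CPM in ligated segment 3, against 161 and 87.3 CPM. Sertoli cells, the testicular source of clusterin, had 4 of 6 markers at or near 0: Fshr had no count in any library, and Amh, Wt1 and Dhh were at or under 0.477 CPM throughout. Inha, the inhibin alpha subunit, was not near 0 and rose in segment 1: it had 27.1 and 21.3 CPM in ligated segment 1, against 1.88 and 4.05 CPM in control segment 1 (3.07 ± 0.35, edgeR adjusted p = 3.96e-04). On the log2 scale, ligated segment 1 lay near control segment 3 (0.07 ± 0.30) and ligated segment 3 (-0.25 ± 0.30). Control segment 1 lay below control segment 2 (-2.73 ± 0.34). The part of Inha-expressing cells in the Clu values was not tested. Sox9, also an epithelial gene, fell and made up most of that list's sum of 66.2 and 46.1 CPM in ligated segment 1, against 157 and 77.5 CPM in control segment 1.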

How the data were processed

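Polyadenylated RNA was sequenced from 12 pools of 2 mice; directional libraries were built from 500 ng of RNA, per the labels. The authors deposited raw counts by gene, not normalized, in 1 table for each sequencing batch. Per the submitters' processing notes, Trim Galore 0.6.0, cutadapt, FastQC and STAR 2.7.0e were used on GRCm38 (mm10). Which tool, strand setting and annotation produced the counts is not stated (not given in the sources used here). Each of the 55536 identifiers matched GENCODE M21, which gave names, coordinates and exon lengths.

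Genes were filtered with filterByExpr (minimum count 10), which left 19213, and scaled by TMM. A quasi-likelihood model (edgeR 4.0.16, R 4.3.3, two-sided, robust) with terms for group and batch was fitted to the 12 libraries together, and p-values were Benjamini-Hochberg adjusted over all genes tested, with calls under 0.05. The common biological coefficient of variation was 0.153, with 5 residual degrees of freedom. Batch is the block, as the design text gives 1 library of every group in each batch; deviations of same-batch libraries correlated between groups at 0.083 to 0.550. The labels' replicate numbers could not be matched to batches, so libraries are named by group and batch. Within-batch log2 ratios use CPM plus 0.5. Shares carry exact 95% intervals. At the lowest depth, 3 counts are worth 0.0984 CPM.

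Clu, the gene lists and the tests were chosen with earlier results of these data known, so no list is independent evidence. A few listed genes are not reported here and are left out of every count of linked genes. Named genes are Clu, list members, the 4 coding genes on each side, the 8 genes most like Clu and the 4 most unlike. No test was run on Clu itself. Alternatives were RLE factors, library totals, other filters, no block, only the libraries of a segment, DESeq2 1.42.0 and leaving out each library. The fit was tested on simulated data, but no result of that is given here, so it says nothing on the error rate.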

Additional observations from a re-analysis of the deposited data

Results flagged for a closer look

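The ligation effect differed for 17 linked or neighbouring genes between segments 1 and 2 and for 19 between segments 1 and 3. This was by the test of the difference itself in edgeR (adjusted p under 0.05 over all genes). In each comparison 15 of the 52 linked genes tested were called, and the rest were chromosomal neighbours. Of all genes tested, 18.5% were called between segments 1 and 2 and 30.7% between segments 1 and 3. Between segments 1 and 3 the share of linked genes called is thus near the background. Values below are log2 differences of the effect, segment 1 first in each difference.

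Between segments 1 and 2 the effect was higher in segment 1 for the uptake genes Lrp2 (2.04) and Dab2 (2.46), for Pltp (0.65) and Hp (1.46), for the complement genes C7 (2.04), C8g (0.80), Cd59a (0.52) and Cd55 (1.85), and for Tgfbr1 (0.56). It was lower for the receptor Vldlr (-5.24), the regulators Hsf1 (-0.41), Egr1 (-2.31) and Tgfb1 (-1.33), and the convertases Pcsk5 (-1.66) and Pcsk7 (-0.41). Of the chromosomal neighbours, Ephx2 differed by 1.70 and Gulo by -2.32.

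Between segments 1 and 3 the effect was higher in segment 1 for Lrp2 (2.22), Dab2 (3.58), Pltp (0.76), Hp (1.54), C7 (1.96), C8a (2.03), C8g (1.04) and Tgfbr1 (0.84). It was lower for Vldlr (-4.75), the cholesterol exporter Abcg1 (-1.12), Hsf1 (-0.55), Tgfb1 (-1.52), Stat3 (-0.48), Pcsk5 (-3.40) and Pcsk7 (-0.41). The neighbours Pbk (2.47), Ccdc25 (0.85) and Ephx2 (1.72) were higher and Gulo (-2.67) lower. The 2 comparisons share the libraries of segment 1.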

How the results depend on the processing

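The log2 difference of Clu kept its sign in all 54 settings compared over the 3 segments. With a library left out, it ranged in segment 1 from 4.76, without the ligated library of batch 3017, to 5.47, shifts smaller than its SE of 0.65. In segment 2 it was 1.21 without the control library of batch 3017 and 3.32 without that of batch 3097, both farther from 2.01 than its SE of 0.58. In segment 3 it ranged from 0.06 to 0.79. Without the batch block, the pairing of libraries by batch, the values were 5.10, 1.88 and 0.41, and the linked genes called numbered 26, 4 and 0. The block moved none of these linked-gene counts by over 1.5 times. Over all genes it did so in segment 2, with 1895 genes called with the block and 1162 without it. Segment 2 also had 149 genes called with only the 4 libraries of the segment and 148 to 4066 with a library left out, and segment 3, with 331 called, had 649 with DESeq2, 211 with only the 4 libraries of the segment and 70 to 501 with a library left out. The level of Clu in ligated segment 2 moved to 23781 CPM with library totals, and to between 22196 and 23184 CPM with either of its libraries left out. Per kilobase the rank of its group mean was 5, 4 and 3 in ligated segments 1, 2 and 3 and 6 in control segment 3. In control segment 3, Gm23935, Gm24270 and Gm42418, which varied widely between the libraries, were among the genes above Clu.

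Linked genes called in segment 1 numbered 20 to 29 with a library left out and 26 to 35 otherwise. In segment 2, 6 became 10 with library totals, 1 with only the 4 libraries of the segment, 12 with DESeq2, and 0 to 16 with a library left out. In segment 3, 0 became 1 without a filter, 1 with only the 4 libraries of the segment, 3 with DESeq2, and 0 to 2 with a library left out. The counts over all genes moved too. In segment 1, 9363 were called in the main fit and 7894 to 9672 in the settings other than leaving out a library. In segment 2, 1895 became 2669 with library totals and 2562 with DESeq2, and in segment 3, 331 became 404 without a filter. The shifts are therefore not particular to the linked genes. Their cause was not tested.

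Of the 28 genes called in segment 1, 17 kept the call in every setting: Abcg1, Apoe, C7, C8g, Dab2, Egr1, Hp, Hsf1, Lpl, Lrp2, Lrpap1, Pcsk5, Pltp, Stat3, Tgfb1, Tgfbr1 and Vldlr. Of the 6 called in segment 2, 0 did.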
